A study of Mus musculus with 9 samples.

Results

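H3K27me3 regions that lie wholly inside one very long gene were studied in mouse hematopoietic stem and progenitor cells. The members were the merged regions on chromosomes 1 to 19 that fell inside the span of a single protein-coding gene of 200 kb or more and touched no other protein-coding gene. There were 1405 of them among 15836 autosomal regions (8.87%) and 18556 regions in all, and 14431 other autosomal regions were set beside them. The rule used the positions of merged regions and not which libraries called them. A merged region exists only where at least 1 library had an interval, so libraries with more intervals add more members. Because a region that runs past the edge of its gene, or onto a second gene, was left out, the members sit within the body of the gene, and 733 further regions that touched a long gene were not members.

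The mark was mapped by chromatin immunoprecipitation sequencing in lineage-negative, c-Kit-positive bone marrow cells, which were never cultured, from female mice that had been transplanted and then kept on metformin (MET), a biguanide that inhibits complex I of the respiratory chain, or vehicle (VEH) for 1 month. RH cells were Dnmt3afl-R878H/+, an allele of the de novo DNA methyltransferase gene Dnmt3a that carries a hotspot change of human leukaemia, and WT cells were Dnmt3a+/+. Both were on C57BL/6 and both carried Mx1-cre, a recombinase under an interferon-inducible promoter that acts in blood and in other tissues. The 8 libraries were RH MET, RH VEH, WT MET and WT VEH, with 2 libraries in each of the 4 groups. The age of the mice, the metformin dose, the induction of Cre and the share of donor cells were not given in the sources used here. Nothing in the labels states that 2 libraries of a group came from different mice. The p-values below therefore rest on library-to-library spread, part of which may be technical.

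H3K27me3 is placed by Polycomb repressive complex 2, in which Ezh2 or Ezh1 is the methyltransferase and Eed reads the mark so that it can spread along the chromatin. In mammals the complex is recruited mostly to CpG islands of genes that the cell does not use, developmental regulators foremost, and transcription keeps it away. Very long genes are rich in neuronal adhesion molecules, ion channels and receptors, most of which blood progenitors have no known use for. In pooled cells, a mark on fewer cells and a weaker mark on each cell cannot be told apart.

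The number of intervals per library was between 11620 (RH VEH 1) and 16879 (RH MET 1), and the covered length between 80.0 Mb (RH VEH 1) and 186 Mb (WT MET 2). RH VEH 1 had the lowest values of both and stood apart in covered length, where RH MET 1 was next with 122 Mb. In number of intervals WT VEH 1 was close to it, with 12009. Read depth was unknown. As a check of the labelled cells, the progenitor gene Kit was covered over 0% to 8.58% of its span, and the blood genes Runx1 and Ptprc had no interval in any of the 8 libraries. Gata2, a transcription factor gene that stem cells use, went against this, with 89.1% to 100% of its span covered. The silent developmental genes Pax6, Hoxd11 and Gata4 were covered over at least 84.9% of their spans in every library.

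Promoter sequences are shown first, because an annotated start of the host gene inside a region went with how often that region was called. The sequences are 300-base windows, from 250 bases before a start to 50 after it, on GRCm38.p6, the assembly of mm10, taken from RefSeq and written 5′ to 3′ on the gene's strand with every CG dinucleotide in capitals. The first 3 lie in wide regions that all 8 libraries called. They belong to Slc35f3, a solute carrier gene (chr8:126298329-126298628, plus strand, 29 CG), to Nav2, which encodes a neuron navigator of the cytoskeleton (chr7:49245939-49246238, plus strand, 42 CG), and to Rbfox3, which encodes the neuronal splicing factor NeuN (chr11:118760992-118761291, minus strand, 4 CG).
Slc35f3: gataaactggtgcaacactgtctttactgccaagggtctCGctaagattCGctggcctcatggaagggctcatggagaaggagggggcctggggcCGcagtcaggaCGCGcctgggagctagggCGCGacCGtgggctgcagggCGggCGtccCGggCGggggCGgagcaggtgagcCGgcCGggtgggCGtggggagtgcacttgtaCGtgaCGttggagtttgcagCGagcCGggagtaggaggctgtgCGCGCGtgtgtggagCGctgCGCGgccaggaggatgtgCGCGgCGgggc
Nav2: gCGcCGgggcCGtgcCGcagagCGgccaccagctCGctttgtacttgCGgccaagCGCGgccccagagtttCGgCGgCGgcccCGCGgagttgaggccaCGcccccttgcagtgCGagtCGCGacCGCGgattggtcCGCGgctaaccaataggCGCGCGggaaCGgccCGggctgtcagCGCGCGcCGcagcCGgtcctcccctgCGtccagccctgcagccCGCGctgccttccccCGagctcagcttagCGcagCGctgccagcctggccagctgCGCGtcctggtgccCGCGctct
Rbfox3: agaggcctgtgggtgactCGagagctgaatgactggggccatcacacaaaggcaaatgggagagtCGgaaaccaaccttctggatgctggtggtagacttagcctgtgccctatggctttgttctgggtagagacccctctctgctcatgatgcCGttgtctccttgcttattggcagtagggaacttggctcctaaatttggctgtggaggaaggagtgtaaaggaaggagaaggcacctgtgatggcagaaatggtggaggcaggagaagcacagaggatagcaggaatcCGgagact

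The next 2 lie in regions that a single library called, and were picked by region width (4 and 3.4 kb), ties by symbol. The 9 windows in such regions held 1 to 48 CG, with the 48 in Sipa1l1, and the always-called window of Rbfox3 holds fewer than that of Pakap. The 2 shown belong to Pakap (chr4:57844998-57845297, plus strand, 9 CG) and to Cpne4, which encodes a copine, a calcium-dependent phospholipid-binding protein (chr9:104587808-104588107, plus strand, 1 CG).
Pakap: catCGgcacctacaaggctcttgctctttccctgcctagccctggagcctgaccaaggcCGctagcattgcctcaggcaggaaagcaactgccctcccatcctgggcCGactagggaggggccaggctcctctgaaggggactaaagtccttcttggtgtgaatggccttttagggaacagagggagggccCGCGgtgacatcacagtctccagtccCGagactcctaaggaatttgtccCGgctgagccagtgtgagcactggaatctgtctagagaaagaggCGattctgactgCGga
Cpne4: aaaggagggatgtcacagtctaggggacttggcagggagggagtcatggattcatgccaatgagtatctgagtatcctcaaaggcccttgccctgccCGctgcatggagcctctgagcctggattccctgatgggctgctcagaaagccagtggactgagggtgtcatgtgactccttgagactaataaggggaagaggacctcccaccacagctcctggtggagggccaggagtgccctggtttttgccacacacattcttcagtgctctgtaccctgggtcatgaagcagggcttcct

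The last 2 belong to blood transcription factors. The window of Foxp1, a forkhead factor required in early B cells (chr6:99028249-99028548, minus strand, 44 CG), lies in a region that all 4 WT libraries and no RH library called. The window of Runx1, a factor required for definitive blood (chr16:92697280-92697579, minus strand, 35 CG), lies in no region and holds more CG than the always-called windows of Slc35f3 and Rbfox3 and fewer than that of Nav2.
Foxp1: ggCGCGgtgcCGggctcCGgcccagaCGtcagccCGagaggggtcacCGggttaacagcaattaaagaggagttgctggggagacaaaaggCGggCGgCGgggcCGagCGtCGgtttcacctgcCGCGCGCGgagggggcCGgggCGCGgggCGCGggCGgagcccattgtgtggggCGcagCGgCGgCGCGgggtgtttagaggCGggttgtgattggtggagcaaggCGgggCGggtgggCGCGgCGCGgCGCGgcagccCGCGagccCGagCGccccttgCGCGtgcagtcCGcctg
Runx1: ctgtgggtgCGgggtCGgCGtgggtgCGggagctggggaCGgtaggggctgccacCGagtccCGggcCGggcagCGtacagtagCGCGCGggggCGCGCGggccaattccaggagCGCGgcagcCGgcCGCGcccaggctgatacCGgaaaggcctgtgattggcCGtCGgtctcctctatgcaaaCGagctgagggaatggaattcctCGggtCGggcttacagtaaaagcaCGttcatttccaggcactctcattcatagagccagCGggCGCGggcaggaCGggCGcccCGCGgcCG

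Of 1056 promoter windows of the long genes, 104 lay in a member that all 8 libraries called. These had a median of 17 CG, and 61 (58.7%) held 15 or more. The 47 windows in members called in 2 to 7 libraries had a median of 8 CG and the 9 in members called in 1 library a median of 9. All 1056 windows of long genes had a median of 14 CG, with 49.1% at 15 or more, and the 434 windows in regions that are not members a median of 22, with 70.3% at 15 or more. Windows in no region numbered 462, with a median of 7 CG and 31.0% at 15 or more. Over all 32851 windows of the table the median was also 7, and 34.6% held 15 or more. Windows of the same gene can overlap, so these counts are a description.

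Regions inside long genes were called less often than other regions. A library was taken to call a region if at least 1 bp of the region lay under one of its intervals. All 8 libraries called 311 members (22.1%, exact 95% interval 20.0% to 24.4%, counting error over regions only), against 41.8% of other autosomal regions, and 40% of all autosomal regions were called in all 8. A single library called 459 members (32.7%), against 21.5% of other autosomal regions and 22.5% of all autosomal regions. These single-library members came unevenly from the libraries, with the most from WT MET 2 (114) and the fewest from RH VEH 1 (7). Between these ends, 196 members were called in 2 libraries, 110 in 3, 90 in 4, 67 in 5, 86 in 6 and 86 in 7.

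**Figure D1:**
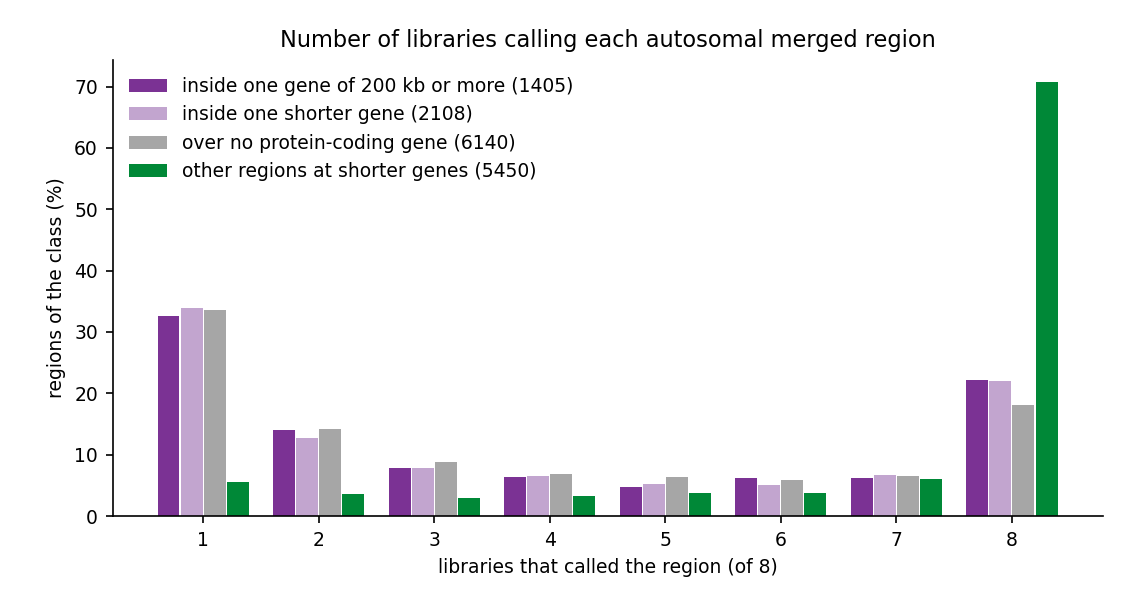
Share of each class of autosomal region (y axis, percent) by the number of libraries that called it (x axis, 1 to 8); bars stand for 4 classes, with their number of regions in the legend. Members, regions inside shorter genes and regions over no protein-coding gene all have their highest bars at 1 library and at 8, and 22.1% of members reached 8.

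Regions inside one shorter gene gave nearly the same shares as members. Of those 2108 regions, 22% were called in all 8 libraries and 34.0% in 1. Of the 6140 regions that overlap no protein-coding gene, 18.1% were called in all 8 and 33.6% in 1. The other autosomal regions also held 5450 regions at shorter genes that cross a gene's edge or a second gene. Of these, 70.8% were called in all 8 and 5.49% in 1. The regions at long genes that were not members, which cross a gene's edge or a second gene, were called in all 8 libraries in 588 of 733 cases (80.2%).

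The paired difference was then tested over the 8 libraries, which are the units here, since regions are not replicates. Members were called in 52.9% and 51.5% of cases in RH MET, 30.8% and 44.1% in RH VEH, 56.2% and 64.8% in WT MET, and 37.6% and 52.2% in WT VEH. Other autosomal regions were called in 69.0% and 65.7% in RH MET, 49.7% and 58.4% in RH VEH, 70.2% and 74.6% in WT MET, and 56.2% and 66.8% in WT VEH. Members were below the others in each of the 8 libraries, by a mean of -15.1 ± 2.93 percentage points (SD, n = 8 libraries; two-sided exact sign-flip permutation test, p = 0.00781, the smallest that 8 libraries allow; Benjamini-Hochberg adjusted over 7 tests, 0.0109). Against regions inside one shorter gene the difference was 0.213 points, above 0 in 4 of 8 libraries (exact permutation p = 0.820, adjusted 0.820, n = 8; range -3.05 to 3.05). Against regions over no protein-coding gene it was 2.25 ± 1.59 points, above 0 in 8 of 8 (exact permutation p = 0.00781, adjusted 0.0109).

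Members were narrower than other autosomal regions. Their width had a median of 7.2 kb (quartiles 4.4 and 12.2 kb, range 0.6 to 125.4 kb), against 9.4 kb for the others, and against 7.2 kb inside shorter genes and 7.0 kb over no gene. The deposited intervals start and end at steps of 200 bp. Members called in all 8 libraries had a median of 13.0 kb and members of a single library 3.8 kb, and a region merged over more libraries can only be wider. Within 6 classes of width the deficit against other regions shrank to -7.49 ± 2.62 points and stayed below 0 in all 8 libraries (exact permutation p = 0.00781, adjusted 0.0109, n = 8). This width comparison was added after seeing the data. Because merged width depends in part on the calls, the classes cannot separate width from calling. Among regions over 15 and up to 25 kb, 38.8% of the 160 members and 70.6% of the 2121 others were called in all 8 libraries, while over 25 kb the shares were 79.1% of 91 members and 92.0% of 1899 others.

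Summits inside members were also low. Within a library, the median summit in members lay at the 32.2nd to 37.4th percentile of that library's autosomal summit heights, against the 49.5th to 51.9th for other intervals. The summit height is the authors' own score. The median interval in members was 4.2 to 7.4 kb wide over the 8 libraries, against 5.4 to 9.2 kb elsewhere.

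The members fell unevenly over the genes. Of 945 autosomal protein-coding genes of 200 kb or more, 418 (44.2%) held at least 1 member, 328 were touched only by regions that are not members, and the other 21.1% had no region of any kind. A single member was found in 168 genes, 2 to 4 in 145, 5 to 9 in 80 and 10 or more in 25. Those 25 genes held 340 members (24.2%). The members summed to 14.6 Mb, or 3.62% of the 404 Mb spanned by the long genes. They took over 25% of the span in 44 genes and over 50% in 13. In 208 genes at least 1 member was called in all 8 libraries, and in 67 genes every member was called in a single library. Neighbouring members of the same gene were a median of 16 kb apart (987 gaps, of which 24.8% were under 5 kb).

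**Figure D2:**
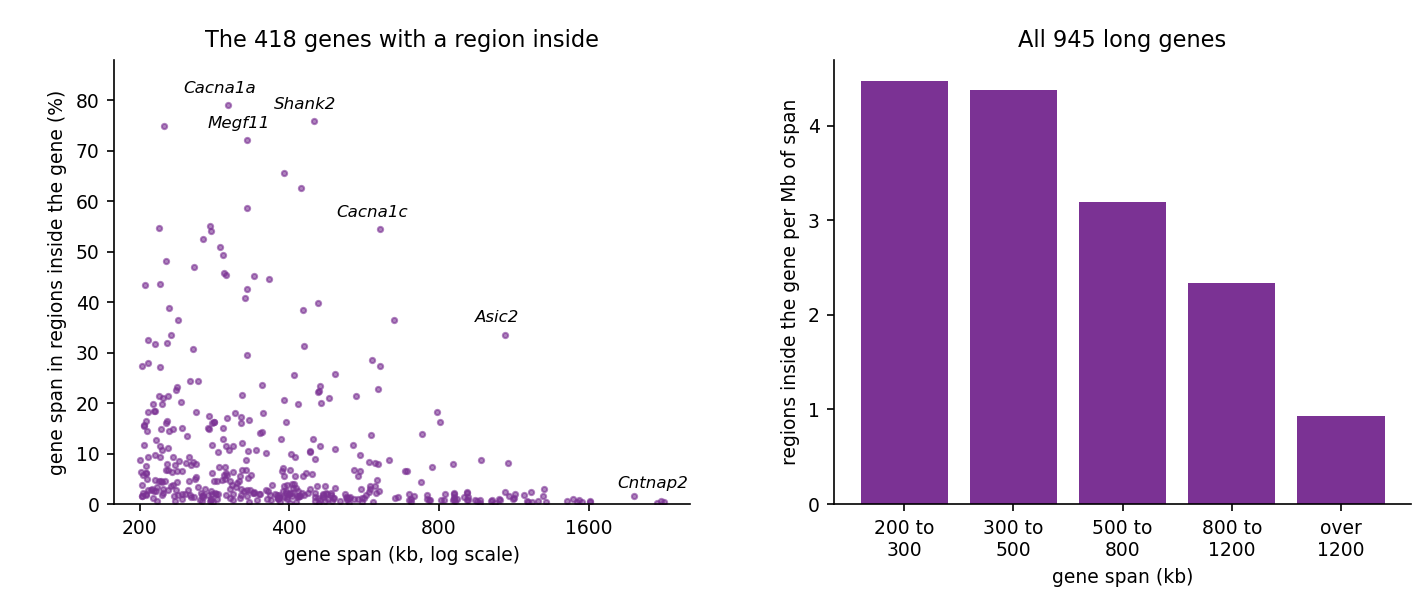
Left, share of the gene span inside members (y axis, percent) against the gene span (x axis, kb, log scale), 1 point for each of the 418 genes with a member; right, members per Mb of span (y axis) for all 945 long genes in 5 classes of span (x axis, kb). The points reach 79.0% at Cacna1a and lie near 0 for the longest genes, and the bars go down to 0.934 per Mb.

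The very longest genes held the fewest members for their length. Genes of 200 to 300 kb held 4.47 members per Mb, with 4.95% of their span inside members, and the classes that follow held 4.38 per Mb (300 to 500 kb), 3.19 (500 to 800 kb), 2.34 (800 to 1200 kb) and 0.934 (over 1200 kb, 0.528% of span). The share of genes with at least 1 member went the other way, with 38.1% in the class of 200 to 300 kb and 63.3% over 1200 kb. Over single genes, length and share of span were nearly unrelated (Spearman correlation 0.0252 over 945 genes, a description across genes, which are not independent).

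Among the 10 longest genes, 4 held no member at all, though each of the 4 was touched by a region that is not a member. These were Lrp1b, a lipoprotein receptor relative, Macrod2, an ADP-ribose hydrolase gene, Csmd1, which encodes a large complement-related membrane protein of neurons, and Ctnna3, an alpha-catenin gene. Ptprd, a receptor phosphatase of synapses and at 2271 kb the longest, held 1 member of 7.4 kb that all 8 libraries called. Cntnap2, a neurexin relative of 2241 kb, held 2 members, Lsamp, an adhesion molecule of limbic neurons, held 2, Nrxn3, a neurexin, held 1, and Fhit, a diadenosine hydrolase gene at a fragile site, held 1. Only Dlg2, a scaffold of the postsynaptic density, held more, with 8 members that summed to 32.6 kb, or 1.65% of its 1973 kb.

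Along the gene, members were spread with a slight lean towards the 5′ end. The strand was known from the promoter table for 707 of the 945 genes, which gave 1117 members in 322 genes a position. The median member lay at 44.9% of the gene from its 5′ end (quartiles 23.2% and 72.1%), and 605 (54.2%) lay in the 5′ part up to the middle. In 10 equal parts of the gene, the counts were 120, 109, 151, 125, 100, 100, 111, 106, 103 and 92. Members called in all 8 libraries had a median position of 47.3% and those of a single library 43.3%. The rule itself takes out regions that cross the 5′ end, so the first of these counts is not a count of all regions there.

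Over an annotated start of their own gene, members were called far more often. Such starts, internal ones included, lay in 142 members of 119 genes, and 93 of these (65.5%) were called in all 8 libraries, while 7 (4.93%) were called in 1. Of the 975 members over none, 15.4% were called in all 8 and 36.1% in 1. Members over a start were called in 88.7% and 81.7% of cases in RH MET, 71.8% and 80.3% in RH VEH, 89.4% and 88% in WT MET, and 77.5% and 85.9% in WT VEH. Members over none were called in 48.5% and 46.4% in RH MET, 23.7% and 39.3% in RH VEH, 51.8% and 61.3% in WT MET, and 31.0% and 47.0% in WT VEH. The difference was 39.3 ± 6.67 points, above 0 in 8 of 8 libraries (exact sign-flip permutation, p = 0.00781, adjusted 0.0109), and 34.4 ± 7.5 points within classes of width. Both comparisons were added after the data were seen, and merged width depends in part on the number of libraries that called a region.

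The planned comparison of members within 2500 bp of the 5′ end of the gene span with all others held only 11 members at that end. It gave a difference of 1.40 ± 13.5 points, above 0 in 4 of 8 libraries (exact permutation p = 0.812, adjusted 0.820, n = 8). With summits of height 15 or more alone the difference was 11.9 points (exact permutation p = 0.00781), and with an equal number of intervals 10.7 points (exact permutation p = 0.0547). Those 11 lay in 11 genes and 4 of them were called in all 8 libraries, among them the members of Adgrb3, an adhesion receptor of neurons, and Ntng1, which encodes a netrin-like membrane protein.

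**Figure D3:**
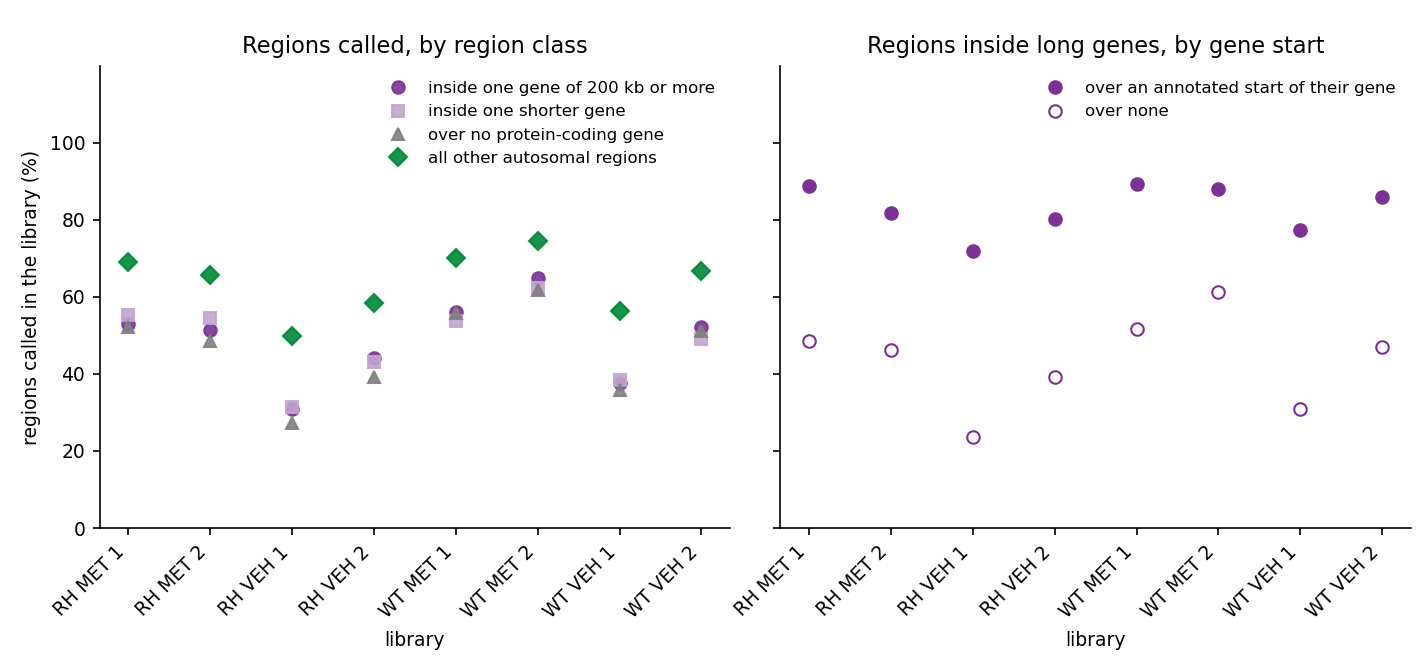
Share of regions called (y axis, percent) in each of the 8 libraries (x axis); left, members, regions inside one shorter gene, regions over no gene and all other autosomal regions; right, members over an annotated start of their gene (filled) and over none (open). The green diamonds of other regions lie above the members in every library, and the filled circles, at 71.8% to 89.4%, lie above the open ones, at 23.7% to 61.3%.

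The greatest total width of merged members was found in Asic2, an acid-sensing sodium channel gene (chr11:80880163-81968396, 1088 kb, minus strand). It held 33 members that summed to 364.8 kb, or 33.5% of its span, of which 4 were called in all 8 libraries and 11 in a single one. The number called was 14 and 11 in RH MET, 7 and 10 in RH VEH, 18 and 23 in WT MET, and 15 and 16 in WT VEH. Intervals in these members covered 6.97% and 6.74% of the gene in RH MET, 3.69% and 8.42% in RH VEH, 13.0% and 23.1% in WT MET, and 13.7% and 12.3% in WT VEH. All 4 RH libraries lay below all 4 WT libraries in Asic2, by cover as by number.

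Cacna1c, which encodes the pore of the L-type calcium channel of heart and neurons (chr6:118587240-119197384, 610 kb, minus strand), was the second by number. Its 22 members took 54.5% of the span, 2 were called in all 8 libraries and 6 in a single one. Cover was 10.5% and 12.3% of the gene in RH MET, 4.10% and 16% in RH VEH, 20.7% and 42.2% in WT MET, and 10.1% and 24.0% in WT VEH, and the genotypes overlapped. Cacna1a, the pore of the P/Q-type channel of synapses (chr8:84338631-84640251), had the greatest share of span in members of all 418 genes, with 79.0% in 6 members, 5 of them called in all 8 libraries. Its cover was 35.7% and 40.4% in RH MET, 24.1% and 61.4% in RH VEH, 49.9% and 63.5% in WT MET, and 57.8% and 56.2% in WT VEH. Shank2, a scaffold of the postsynaptic density (chr7:143978077-144426043), followed with 75.9% of its span in 11 members. Intervals covered 140 and 178.2 kb of them in RH MET and 71.2 and 250 kb in RH VEH. In WT MET it was 201 and 291.6 kb, and in WT VEH 181 and 225.4 kb. Asic2 had less in every library, with 75.8, 73.4, 40.2, 91.6, 142, 251.4, 149.4 and 133.4 kb in the same order.

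Rbfox3 (chr11:118489760-118911597, minus strand) was marked in few, wide blocks. It held 7 members that took 62.6% of its 422 kb, 4 of them called in all 8 libraries and none in a single one. Cover was 21.9% and 28.1% in RH MET, 14.8% and 37.8% in RH VEH, 34.8% and 52.4% in WT MET, and 50.3% and 37.2% in WT VEH. The 65.4 kb member around the promoter printed above (chr11:118711601-118777000) was among the 4.

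**Figure D4:**
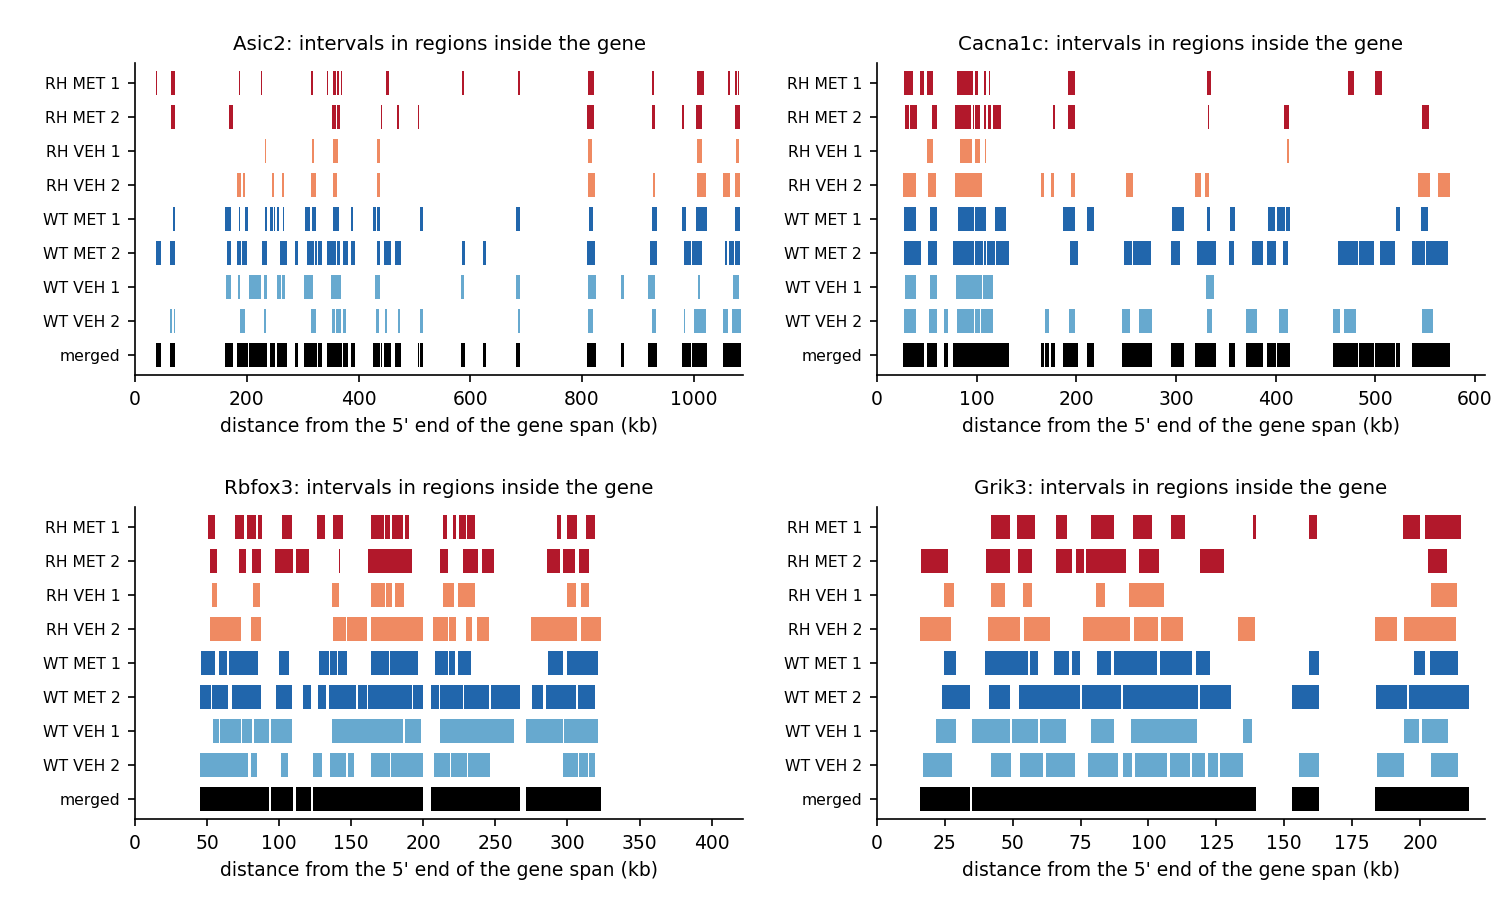
Intervals in members (coloured bars, 1 row per library) and the merged members (black) along Asic2, Cacna1c, Rbfox3 and Grik3, by distance from the 5′ end of the gene span (x axis, kb); regions that are not members are not drawn. Asic2 shows 33 scattered members, most of them called in some libraries, whereas 2 of the 4 members of Grik3, one of them 104.8 kb wide, are called in all 8 rows.

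Of the other genes with the greatest total width, Myo3b, a motor of sensory hair cells, had 65.6% of its span in 12 members, Nav2 237.6 kb in 17 (36.5%), Megf11, a cell surface protein with EGF repeats that spaces retinal neurons, 237.0 kb in 4 (72.1%), Zbtb7c, a zinc finger gene, 192.4 kb in 12 (58.6%) and Cdh4, R-cadherin, 182.0 kb in 12 (39.8%). In Megf11, cover was 28.1% and 40.2% of the gene in RH MET, 12.3% and 47.1% in RH VEH, 49.2% and 63.1% in WT MET, and 41.5% and 59.1% in WT VEH. In Cdh4 it was 8.32% and 11.2% in RH MET, 4.33% and 12.3% in RH VEH, 17.3% and 24.5% in WT MET, and 19.5% and 23.5% in WT VEH, so that the RH libraries lay below the WT libraries without overlap.

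**Figure D5:**
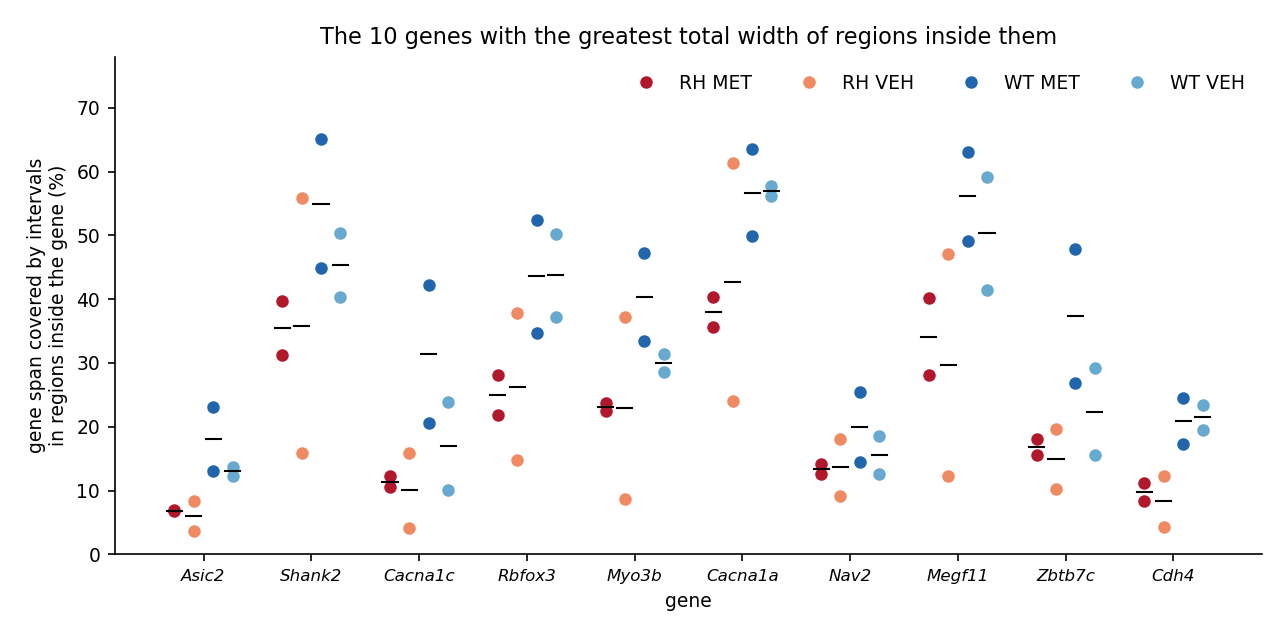
Share of the gene span covered by intervals in members (y axis, percent) in the 10 genes with the greatest total width of members (x axis); points are libraries, 2 for each of RH MET, RH VEH, WT MET and WT VEH, and short lines are group means. RH and WT points are apart in Asic2 and Cdh4 and overlap in the other 8 genes.

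The 5 widest members called in all 8 libraries lay in Megf11, Grik3, Dscaml1, Ptprn2 and Magi1. That of Megf11 (chr9:64454601-64580000) was 125.4 kb wide, and intervals covered 43.0 and 59.0 kb of it in RH MET, 17.6 and 85.6 kb in RH VEH, 72.8 and 107.4 kb in WT MET, and 78.8 and 101 kb in WT VEH. That of Grik3, a kainate receptor subunit (chr4:125525201-125630000), was 104.8 kb wide and covered over 39.8 and 53.0 kb in RH MET, 24.6 and 61.8 kb in RH VEH, 65.8 and 83.6 kb in WT MET, and 68.8 and 77.4 kb in WT VEH. In these members RH VEH 1 had the lowest cover of the 8 libraries, and this library had the least covered length genome-wide. The member of Dscaml1, an adhesion molecule of neurons, was 88 kb wide, that of Ptprn2, a phosphatase-like protein of secretory granules, 86.6 kb, and that of Magi1, a scaffold of cell junctions, 82.2 kb. The Ptprn2 member had the tallest summits of the 5, with heights of 49 and 45 in RH MET, 26 and 38 in RH VEH, 49 and 52 in WT MET, and 31 and 44 in WT VEH.

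Many members in a gene did not always mean stable calls. Sdk1, a sidekick adhesion molecule of retinal synapses (chr5:141241497-142215586, 974 kb, plus strand), held 18 members, of which none was called in all 8 libraries and 13 were called in a single one. No RH library called any of the 18, while WT MET called 11 and 8 of them and WT VEH 2 and 4. Camta1, a calmodulin-binding transcription activator, held 16 members with 8 in a single library, Dock3, a Rac exchange factor of neurons, 15, Rgs6, a brake on G protein signalling, 15, Slit3, a ligand of Robo receptors in axon guidance, 14 with 8 in a single library, and Kalrn, an exchange factor of dendritic spines, 13.

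Gene classes were described with lists drawn from general knowledge, whose genes can stand on more than 1 list. Each count is of list genes that are autosomal and at least 200 kb long, and is to be read against 418 of 945 long genes with a member (44.2%), 22.1% of members called in all 8 libraries and 3.62% of span. No test was run on a list.

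Among ion channels, 16 of 31 genes held a member and 119 members took 9.92% of the span, the highest share of the 11 lists, of which 16% were called in all 8 libraries. Asic2, Cacna1c and Cacna1a led, with 364.8, 332.4 and 238.4 kb in members. Over single channel genes the median share of span was 0.807%, against 2.26% for RNA-binding proteins and 0% for all long genes. Without a member were among others Ryr2, the calcium release channel of heart muscle, and Kcnd2, a potassium channel gene. Both were touched by a region that is not a member. RNA-binding proteins had a member in 8 of 9 genes, with 25 members, 52.0% called in all 8 libraries and 9.14% of span. Rbfox3 led that list with 7 members, Celf4, a regulator of splicing and translation in neurons, had 8 members with 6 called in all 8 libraries, and Rbfox2 had 3.

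Synaptic and neuronal adhesion molecules, the list with the longest genes (median 833 kb), had a member in 25 of 44 genes but only 2.37% of their span in 99 members, of which 23.2% were called in all 8 libraries. Magi1 led by width, followed by Sdk2, with 51.0% of its span in 8 members, and Dscaml1. Neurotransmitter receptors had a member in 12 of 20 genes (30 members, 26.7% in all 8, 4.90% of span), led by Grik3, Grik4 and the GABA receptor subunit gene Gabbr2. Axon guidance genes had one in 10 of 19, with 29 members, led by Slit3, the ephrin receptor gene Ephb1 and the plexin gene Plxna4. Cadherins and protocadherins had one in 4 of 13 (Cdh4, Cdh23, Cdh13 and Dchs2), with 21 members.

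Transcription and chromatin regulators had a member in 34 of 55 genes, with 117 members, 25.6% of them called in all 8 libraries and 3.66% of span. Camta1, Zfp536, a zinc finger repressor of neural differentiation, and Ebf1 led the list. Genes of the cytoskeleton, its exchange factors and motors had a member in 15 of 24 genes and 6.04% of span, with 28.8% of 73 members called in all 8 libraries, and Myo3b, Kalrn and the ankyrin gene Ank3 led. Kinases, phosphatases and growth factor signalling had one in 19 of 37, with 29.8% of 57 members called in all 8 libraries, led by Ptprn2 and the phosphodiesterase genes Pde10a and Pde11a. Extracellular matrix genes had one in 9 of 24, and 8.11% of their 37 members were called in all 8 libraries, the lowest share of the lists. Col23a1, a transmembrane collagen with 10 members over 49.3% of its span, the tenascin gene Tnr and Col24a1 led.

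Blood and immune genes were split. Of 20 such genes, 10 held a member, with 40 members, 20.0% of them called in all 8 libraries and 4.42% of span. No region of any kind was found in 5 of the 20 genes, and 21.1% of all long genes likewise had none. Among the 5 were Runx1, Etv6, an ETS repressor needed by adult stem cells, and Dock2, a Rac exchange factor of leukocytes. Arhgap15, a Rac-inactivating protein of leukocytes, was another of them. Msi2, an RNA-binding protein of stem cells, had 1 member of 4.6 kb, which both RH MET libraries and no other called. Meis1, a homeobox gene of stem cells, spans 139 kb and does not reach the length set.

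Genes of lymphocytes on that list differed widely in their share of span. Ebf1, which commits cells to the B lineage (chr11:44618100-45008096), had 11 members over 20.7% of its span, 3 of them called in all 8 libraries. Its cover was 6.46% and 4.77% of the gene in RH MET, 3.38% and 12.6% in RH VEH, 11.1% and 8.05% in WT MET, and 5.74% and 9.44% in WT VEH, and the groups overlapped. Skap1, a T cell adaptor (chr11:96464570-96759622), had 45.8% of its span in 5 members, covered over 28.8% and 26.8% of the gene in RH MET, 16.3% and 28.7% in RH VEH, 25.3% and 32.9% in WT MET, and 26.1% and 23.7% in WT VEH. Bach2, a repressor of plasma cell fate, had 2 members that summed to 7.2 kb (2.07% of span), and none was called in all 8.

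Of 3 factor genes of stem cells, Prdm16 and Erg had a larger share of their span in members than the 3.62% of all long genes, and Mecom, with 3.01%, a smaller one. Prdm16 (chr4:154316122-154637360), a zinc finger factor that maintains stem cells, had 8 members over 21.6% of its span, covered over 8.22% and 15.8% of the gene in RH MET, 4.48% and 7.47% in RH VEH, 3.36% and 12.9% in WT MET, and 11.3% and 5.79% in WT VEH. Erg, an ETS factor of stem cells and endothelium, had 4 members that summed to 37.2 kb (16.4% of span). One of 14 kb (chr16:95449401-95463400) lay over an annotated start and was called in all 8 libraries, with 11.6 and 11.6 kb covered in RH MET, 10.8 and 10.6 kb in RH VEH, 9.6 and 11.2 kb in WT MET, and 9.4 and 10.2 kb in WT VEH. In Mecom, which encodes Evi1, the member of 8.4 kb over a start at 89.1% of the gene's length (chr3:30007801-30016200) was likewise called in all 8. Intervals covered 7.4 and 8.4 kb of it in RH MET, 5.2 and 7.4 kb in RH VEH, 5.2 and 8.4 kb in WT MET, and 4.6 and 7.2 kb in WT VEH.

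Of 1005 microRNA hairpins in the RefSeq table, 75 overlapped a long gene and 2 lay in a member. Their mature sequences are shown with the seed, bases 2 to 8, in capitals. Mir3105 lies in a 61.6 kb member inside Shank2 (chr7:143995001-144056600) that all 8 libraries called, and Mir1904 in a 5.2 kb member inside Pde4d, a cyclic AMP phosphodiesterase gene (chr13:109900201-109905400), called in 7 libraries. The 3 seeds differ from each other.
mmu-miR-3105-5p: aGAGCAAGcccguaagcagcgu
mmu-miR-3105-3p: aCUGCUUAugagcuugcacucc
mmu-miR-1904: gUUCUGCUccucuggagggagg

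Genotype and treatment were compared over the 8 libraries with 3 measures and 2 contrasts, 6 tests in all, and none passed a threshold of 0.05 after adjustment. RH libraries called 44.8% ± 10.1 of the members, against 52.7% ± 11.4 in WT libraries (SD, n = 4 each). The difference was -7.90 points (two-sided exact permutation, p = 0.371, adjusted 0.457), -8.36 within MET and -7.44 within VEH. MET libraries called 56.4% ± 6.00, against 41.2% ± 9.15 in VEH libraries, a difference of 15.2 points (exact permutation p = 0.0571, adjusted 0.343, n = 4 each), 14.7 within RH and 15.6 within WT. With 4 libraries against 4 the smallest p is 0.0286, and with 2 against 2 it is 0.33.

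Set against the other autosomal regions of the same library, these differences were smaller. Members less others gave -15.9 ± 2.21 points in RH and -14.2 ± 3.65 in WT, a difference of -1.66 (exact permutation p = 0.429, adjusted 0.457, n = 4 each), and -13.5 ± 2.69 in MET and -16.6 ± 2.53 in VEH, a difference of 3.09 (p = 0.143, adjusted 0.429). The members' share of the covered autosomal length was 4.29% ± 0.669 in RH and 4.94% ± 0.631 in WT (exact permutation p = 0.257, adjusted 0.457, n = 4 each), and 4.86% ± 0.668 in MET and 4.37% ± 0.722 in VEH (p = 0.457, adjusted 0.457). It was lowest in RH VEH 1, with 3.38%, and highest in WT MET 2, with 5.81%, the libraries with the least and the most covered length. Both directions of members less others turned under a minimum summit height and under an equal number of intervals, as given with the limits of processing.

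Single members were then counted that both libraries of one group and neither of the other called. Such counts carry no p, and the number of calls per library moves with them. Counts with libraries or intervals left out have no share of all autosomal regions beside them. They cannot show whether members differ from other regions. Between RH VEH and WT VEH, 12 of 942 members were called in RH VEH alone (1.27%, against 0.612% of all autosomal regions) and 34 in WT VEH alone (3.61%, against 3.47%). RH VEH 1 called the fewest members of all. Without it the order turned, with 94 members called in RH VEH 2 and in neither WT VEH library and 46 called in both WT VEH libraries and not in RH VEH 2. A pair reduced to 1 library asks for fewer calls, and without WT VEH 1, WT VEH 2 or RH VEH 2 the counts were 22, 46 and 37 in RH VEH alone and 206, 95 and 105 in WT VEH alone.

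The widest members called in RH VEH alone lay in Adgrv1, a giant adhesion receptor of hair cells (2 members), in Prkag2, a regulatory subunit gene of AMP-activated protein kinase, in Zfp423, a zinc finger factor, and in Ablim1, an actin-binding LIM protein gene. That of Prkag2 (12.4 kb) was covered over 6.6 and 11.6 kb in RH MET, 3.4 and 11.8 kb in RH VEH, 8.8 and 11.0 kb in WT MET and 0 kb in both WT VEH libraries. It was thus called in every library but the WT VEH pair. The widest called in WT VEH alone were a pair in D430041D05Rik (27.2 and 27 kb), Col23a1 (24.2 kb), Atp2b2, a plasma membrane calcium pump gene (18.6 kb), and Megf11 (17.0 kb). Of the 34, both RH MET libraries called 11 and neither called 12. Both WT MET libraries called 14.

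More members were called in MET alone than in VEH alone in both genotypes, with shares near those of all autosomal regions in RH. There, 61 of 1026 members were called in RH MET alone (5.95%, against 5.35% of all autosomal regions) and 6 in RH VEH alone (0.585%, against 0.309%). Of 1185 members in WT, 77 were called in WT MET alone (6.50%, against 4.24%) and 6 had calls in both WT VEH libraries only (0.506%, against 0.473%). Without RH VEH 1 the counts were 77 in RH MET alone and 71 in RH VEH 2 alone, and without WT VEH 1 they were 110 in WT MET alone and 91 in WT VEH 2 alone. Leaving out any 1 of the other libraries gave 156 to 210 in RH MET alone with 11 to 20 in RH VEH alone, and 187 to 252 in WT MET alone with 13 to 36 in WT VEH alone. RH MET libraries held 938 and 887 intervals in members, RH VEH 527 and 737, WT MET 985 and 1087, and WT VEH 616 and 938. With the same number of intervals taken from each library by summit height, RH gave 28 in RH MET alone and 15 in RH VEH alone. WT gave 29 in WT MET alone and 13 in WT VEH alone. Shares of all autosomal regions were not counted with libraries left out or with equal numbers.

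In RH, the widest members called in MET alone were the pair in D430041D05Rik, Kcnip1, a gene of a potassium channel accessory protein (21.8 kb), Arhgap26, a GTPase-activating protein gene (21.4 kb), and Sdk2 (19.8 kb). In D430041D05Rik, the 27.2 kb member was covered over 8.6 and 4.4 kb in RH MET, 0 kb in both RH VEH libraries, 12 and 25.4 kb in WT MET and 7.8 and 19.8 kb in WT VEH. Both of these members had calls in 6 libraries and none in the RH VEH pair. In WT, they were in Adgrv1, Samd4, an RNA-binding repressor gene, Kcnip1, Kcnd3, which encodes a potassium channel of the heart, and Nav2. In the other direction the widest lay in Xkr6, Dock3, Dscam, an adhesion molecule of neurons, Asic2 and Limch1 for RH VEH alone, and in Adamts2, a procollagen protease, Fbn1, fibrillin, Xkr6, Kcnd3 and Fstl4 for WT VEH alone.

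Between RH MET and WT MET, 22 of 1283 members were called in RH MET alone (1.71%, against 1.56% of all autosomal regions) and 73 in WT MET alone (5.69%, against 3.32%). Without RH MET 2 the counts were 118 in RH MET 1 alone and 115 in WT MET alone, without RH MET 1 they were 123 and 145, and without WT MET 1 or WT MET 2 they were 35 and 62 in RH MET alone and 240 and 175 in WT MET alone. Among the widest of RH MET alone were members in Atp8a2, a phospholipid flippase gene of neurons (19.4 kb), Iqsec1, an Arf exchange factor, Limch1 and Lrba. The Atp8a2 member was covered over 6.4 and 4.2 kb in RH MET, 0 and 18.2 kb in RH VEH, 0 kb in both WT MET libraries and 0 and 11 kb in WT VEH, so that 1 library of each VEH group also called it. The widest of WT MET alone lay in Camta1 (27 kb), Magi1 (22.2 kb), Tmem108 (17.6 kb), Asic2 (17.4 kb) and Megf11 (17.0 kb). Asic2 and Sdk1 each had 4 members of this kind, and Cacna1c and Camta1 each had 3.

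Over 4 libraries against 4, few members separated the genotypes or the treatments. No member was called in all RH and no WT library (against 0.0316% of all autosomal regions), and 3 were called in all WT and no RH library (0.214%, against 0.215%). They were the 17.0 kb member of Megf11, one of 8.6 kb in Gm11639 and one of 5.6 kb in Foxp1. The Foxp1 member (chr6:99025401-99031000), which holds the promoter printed above, was covered over 4.0 and 3.0 kb in WT MET and 5.2 and 3.6 kb in WT VEH and had no interval in RH MET or RH VEH. Its WT summit heights were 21 and 16 in WT MET and 14 and 14 in WT VEH. The other 2 members of Foxp1 were called in both genotypes.

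All MET and no VEH libraries called 4 members (0.285%, against 0.341%), in Kcnip1 (21.8 kb), Kcnd3 (16.8 kb), Nav2 (12.2 kb) and Gm11639 (7.0 kb), and all VEH and no MET libraries called none (against 0% of all autosomal regions). The Kcnip1 member was covered over 5.4 and 5.6 kb in RH MET, 4.2 and 20.2 kb in WT MET and 0 kb in each VEH library. That of Kcnd3 was covered over 3.0 and 7.2 kb in RH MET and 6.0 and 12.6 kb in WT MET. Summit heights at both were 9 to 15.

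Summed over a gene, cover in members separated the genotypes in 17 genes. All 4 RH libraries lay below all 4 WT libraries in 17 of the 418 genes (4.07%), against 2.88% of 1843 autosomal protein-coding genes of any length with a region inside them alone, and the opposite was found in 0 of 418 (against 0.109%). By single members, 30 of 1405 had all RH below all WT (2.14%, against 3.16% of all autosomal regions), and 1 had all RH above (0.0712%, against 0.107%). Treatment separated 8 members with all MET above all VEH (0.569%, against 0.966% of all autosomal regions) and 1 with all MET below (0.0712%, against 0.0821%). These counts were added after the data were seen, and the RH libraries covered less of the autosomes, with 113 and 123 Mb in RH MET and 76.8 and 136 Mb in RH VEH, against 135 and 166 Mb in WT MET and 132 and 130 Mb in WT VEH. The part of that total in the counts was not tested.

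Named here after their values were seen, the largest of these gene differences in covered length were in Asic2 and Cdh4, followed by Igsf21, an adhesion molecule of inhibitory synapses, Sdk1 and Gabbr2. Igsf21 was covered over 29.0 and 27.2 kb in RH MET and 24.2 and 42.4 kb in RH VEH, against 53.0 and 78.2 kb in WT MET and 56.4 and 62.8 kb in WT VEH. Sdk1 was covered over 0 kb in each RH library, against 45.6 and 43.0 kb in WT MET and 8.6 and 16 kb in WT VEH. Rasgrf2, a Ras exchange factor gene, and Gramd1b, a sterol transporter gene, also had no interval in a member in any RH library, against 3.4 to 18.2 kb and 2.8 to 20.4 kb over the 4 WT libraries. Treatment separated 2 genes, Zfhx3, a homeodomain zinc finger gene, and Atrnl1, with all MET above all VEH libraries (0.478% of 418, against 0.977%), and none in the other direction (against 0.109%). Zfhx3 was covered over 32.8 and 34.0 kb in RH MET and 36.2 and 32.4 kb in WT MET, against 23.0 and 32.2 kb in RH VEH and 30.8 and 28.8 kb in WT VEH.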

How the data were processed

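H3K27me3 ChIP-seq was given for 8 libraries as intervals, summits and a list of regions merged over the libraries, all as positions on mm10. The submitters' processing notes name bcl2fastq 2.20, BWA 0.7.12 and mm10 without roles, and the interval caller is not given in the sources used here. The summit height is the authors' own score, deposited in whole numbers with no stated scale. An input library was not used here. Read depth is unknown, so no interval from counting reads is given.

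Gene spans, 5′ ends and promoter windows came from RefSeq (GRCm38.p6), which gave no exons here, so exon and intron positions are not stated. All 18556 merged regions were assigned to genes with Python 3.11.15, numpy 2.4.6 and pandas 2.3.3 (figures, matplotlib 3.10.9), and 0 columns of other samples were present. Differences between region classes were tested over libraries by exact sign flips, and contrasts of RH with WT and MET with VEH by exact permutation of libraries, with Benjamini-Hochberg adjustment and a threshold of 0.05. The procedures were tested on simulated data.

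The members and gene lists were chosen with earlier results of these data known. Genes were named by total width of members, number of members, greatest length and, within each list, width. Members named in the group comparisons are the 5 widest of each kind, of which 1 is not reported here. Genes outside these rules (the carriers of printed promoters and 5′-end members) were chosen after their values were seen. Alternatives were a minimum summit height of 15, an equal number of intervals (11620) per library, cover of at least 50%, gene spans of at least 150 and 300 kb, leaving out each library, and a replicate block.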

Additional observations from a re-analysis of the deposited data

Results flagged for a closer look

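A member of 7.2 kb inside Nav2 (chr7:49085801-49093000), 127 kb from the 5′ end of the gene, moved in opposite directions in the 2 genotypes. It was covered over 0 kb in both RH MET libraries, against 2.8 and 6.2 kb in RH VEH, and over 5.2 and 6.4 kb in WT MET, against 0 kb in both WT VEH libraries. This difference between the genotypes was not tested. It is 1 of 1405 members looked at, and the same pattern was not counted over all autosomal regions. Nav2 held 3 members called in RH MET alone and 3 in WT MET alone when each MET group was set against its VEH group.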

How the results depend on the processing

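Members stayed below other autosomal regions under every alternative run, by -15.8 to -14.5 points without any 1 library, but set against regions inside one shorter gene the difference was 0.213 and against regions over no gene 2.25 (both added after seeing the data). The share called in all 8 libraries was 8.26% at a minimum summit height of 15, 19.4% with an equal number of intervals, 4.70% with cover of at least 50%, and 22.1% to 24.9% without any 1 library. In members less others, RH minus WT turned to 0.629 (height), 0.0282 (equal number) and 0.185 (cover), and MET minus VEH to -1.72 (height) and -0.983 (equal number). The share of covered length, MET minus VEH, turned to -0.0721 with an equal number. The cause was not tested. Members at the 5′ end less the rest gave 11.9 (height; exact permutation p = 0.00781), -2.01 (genes of 300 kb or more) and -2.47 to 3.69 without any 1 library, and members over any annotated start, added after seeing the data, 39.3, or 34.4 within classes of width.

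Under the alternatives, regions called in 1 group alone were counted among members only. Such counts cannot show whether members differ from other regions. The cause of a change was not tested beyond the smaller number of calls and libraries. Members called in 1 group alone changed in number with the call rule. At height 15 they were 0 in RH VEH and 20 in WT VEH (RH VEH against WT VEH), 0 in RH VEH (against RH MET), 43 in WT MET with 1 in WT VEH, and 3 in RH MET and 40 in WT MET. With equal numbers they were 21 in WT VEH, 28 in RH MET and 15 in RH VEH, 29 in WT MET with 13 in WT VEH, and 41 in WT MET (against RH MET). With cover of 50% they were 6 in RH VEH (against WT VEH), 35 in RH MET (against RH VEH) and 122 in WT MET (against RH MET), and in genes of 300 kb or more 7 in RH VEH and 19 in WT VEH, 33 in RH MET, and 51 in WT MET and 2 in WT VEH. Without any 1 library they were 22 to 94 in RH VEH and 46 to 206 in WT VEH, 77 to 210 in RH MET and 11 to 71 in RH VEH, 110 to 252 in WT MET with 13 to 91 in WT VEH, and 35 to 123 in RH MET and 115 to 240 in WT MET.

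Over member regions, 0 of 6 distinct correlations of same-numbered libraries (with 2 libraries a group, replicate 2 mirrors replicate 1) passed 0.1 (-0.0288 to 0.0902). These correlations cannot show a shift shared by all regions of a library, so they do not settle whether replicate numbers pair the libraries. Replicate 2 had the greater covered length in each of the 4 groups. That was 145 against 142 Mb in WT VEH and 186 against 148 Mb in WT MET. In RH VEH it was 155 against 80.0 Mb, and in RH MET 131 against 122 Mb. With the replicate block RH minus WT in percent of members called was -7.90 (exact permutation p = 0.125) and MET minus VEH 15.2 (p = 0.125), the smallest p that 4 pairs allow, and no call changed. Unknown depth, 2 libraries a group and RH VEH 1 limit every group comparison.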
